A study of Mus musculus with 8 samples.

Results

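The response of autophagy competent mouse melanocytes, the pigment cells of the skin, to long-wave ultraviolet light was described across 22180 genes. The members were 4 of the 8 arrays of the series, taken by their titles: 2 arrays of cells exposed to 20 J/cm2 UVA-1 and 2 arrays of sham-treated cells, with RNA isolated 6 h after treatment. All 4 came from cells labelled Atg7 f/f, which carry floxed Atg7 alleles without Cre and are called WT in the titles. The other 4 arrays held the same treatments of Atg7 f/f Tyr::Cre cells, in which Cre is driven by the tyrosinase promoter of pigment cells and Atg7, an enzyme needed to build autophagosomes, is targeted. The cells had been isolated from pups of 1 to 5 days, labelled female, and kept in melanocyte medium for 22 days. The submitters describe biological duplicates, and the labels do not say how many pups a culture held. UVA-1 and sham arrays with the same replicate number were treated as a pair, so every change is given for pair 1 and pair 2.

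UVA-1 penetrates to the deep skin and is absorbed by cellular chromophores, melanin among them, and so acts largely through reactive oxygen species. Oxidised cysteines on KEAP1 release the transcription factor NRF2, which drives genes for glutathione synthesis, NADPH supply and quinone reduction. Misfolded protein releases heat shock factor HSF1 to drive chaperone genes, and damaged DNA stabilises p53, which drives genes of cell cycle arrest, repair and apoptosis.

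The 4 arrays had median intensities from 110 to 114. Of the 12 melanocyte markers all were measured, with a median log2 intensity of 11.67 and 13.24 in sham arrays 1 and 2 and 11.37 and 13.21 after UVA-1. Fibroblast markers, also 12 of 12, had medians of 11.92 and 9.47 in the sham arrays and 11.86 and 9.29 after UVA-1. The replicate numbers thus differed in these markers far more than the treatments did, and the first principal component of the 4 arrays, with 90.6% of the variance, separated pair 1 from pair 2. Markers of keratinocytes, myeloid, mast and endothelial cells and skeletal muscle were dim, with medians from 4.64 to 7.09 in the 4 arrays. Schwann cell markers, 7 of 9 measured and partly shared with melanocytes, had medians of 8.16 and 9.54 after sham and 8.15 and 8.93 after UVA-1. Array intensity does not separate fewer cells of a type from less RNA per cell. Atg7 read 9.95 and 9.75 in the sham arrays and 9.97 and 9.70 after UVA-1, a difference of -0.01 ± 0.08 (moderated SE). Here and below, unless another is named, an SE is limma's moderated one, whose variance is estimated from all 8 arrays and drawn towards that of other genes, so it is not the spread of the 2 pairs. For Atg7 the SE from the 2 pair differences alone was 0.03. In Atg7 f/f Tyr::Cre cells it read 9.70 and 9.22 after sham. A whole-transcript probe set can also cover exons outside a floxed segment, so this level does not check the deletion.

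The promoters of 4 genes carry letters known from stress responses and these genes are among those described below, so their 250 bases before the start are shown, 5′ to 3′ (RefSeq, build GRCm38.p6). These 4 hold a match, so they do not stand for the genes below as a set. Others described below hold such letters too, among them Cbr3, Hsph1 and Dnajb4. No promoter entry was matched for Gclc, Hmox1, Trp53inp1, Slc40a1 and Gsr. Capitals mark the heat shock element arrangement GAANNTTC or TTCNNGAA, the antioxidant response element core TGACNNNGC and the CEBP-ATF response element core TGATGNAA, each searched on both strands. Hspa1b lies on the minus strand at chr17:34959239-34959488, Hspa1a on the minus strand at chr17:34972157-34972406, Slc7a11 on the minus strand at chr3:50443614-50443863 and Gclm on the plus strand at chr3:122245307-122245556.
Hspa1b: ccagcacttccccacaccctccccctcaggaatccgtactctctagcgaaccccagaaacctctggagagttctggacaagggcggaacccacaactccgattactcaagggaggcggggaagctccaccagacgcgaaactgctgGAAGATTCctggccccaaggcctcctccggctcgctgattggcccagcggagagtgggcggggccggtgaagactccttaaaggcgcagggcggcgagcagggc
Hspa1a: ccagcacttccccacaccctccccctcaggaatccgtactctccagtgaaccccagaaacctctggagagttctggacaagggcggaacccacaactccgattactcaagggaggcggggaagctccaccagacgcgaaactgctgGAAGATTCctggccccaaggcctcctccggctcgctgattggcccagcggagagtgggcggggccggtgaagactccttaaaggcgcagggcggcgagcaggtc
Slc7a11: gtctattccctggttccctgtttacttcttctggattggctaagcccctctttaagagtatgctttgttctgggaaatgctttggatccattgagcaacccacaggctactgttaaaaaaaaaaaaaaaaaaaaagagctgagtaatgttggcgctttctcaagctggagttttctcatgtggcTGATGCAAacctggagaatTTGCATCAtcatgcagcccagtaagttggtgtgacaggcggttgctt
Gclm: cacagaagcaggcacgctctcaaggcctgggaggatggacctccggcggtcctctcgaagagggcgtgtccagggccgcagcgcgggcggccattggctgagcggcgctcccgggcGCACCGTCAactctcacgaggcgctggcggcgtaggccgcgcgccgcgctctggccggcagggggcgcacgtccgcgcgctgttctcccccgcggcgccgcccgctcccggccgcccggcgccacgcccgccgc

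Both Hsp70 genes held the match GAAGATTC from -104 to -97, counted back from the start, and their 250 bases differed at 3 positions. Slc7a11 held TGATGCAA from -66 to -59 and its reverse TTGCATCA from -47 to -40. Gclm held GCACCGTCA from -134 to -126. In the same window GAANNTTC occurred in 6.69% of 32851 listed promoters, TTCNNGAA in 7.17%, the antioxidant core in 10.2% and the CEBP-ATF core in 3.45%. Of the 33 listed NRF2 target genes with a promoter entry, 9 held the antioxidant core, among them Gclm, Txnrd1, Abcc4, Mgst1 and Mafg. GAANNTTC was found for 7 of the 21 heat shock genes with an entry and TTCNNGAA for 4. The 7 include Hspa1a and Hspa1b, whose near-identical bases are not separate cases, and Dnaja1, which was not measured here. A match describes letters in this window and not a bound site.

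Genes were ranked by the smaller of their differences in pair 1 and pair 2. The 10 leading increases included a pair of inducible Hsp70 genes, the cystine carrier gene Slc7a11, the iron exporter gene Slc40a1, the AP-1 gene Fosb and the quinone reductase gene Nqo1. The 10 leading decreases included the histone gene H2bc9, the peptide ligand gene Apln and the neurotrophin receptor gene Ngfr. Enzymes that make and recycle glutathione were higher by less, with a mean log2 difference of 0.61 for Gsr, 0.60 for Gclm and 0.50 for Gclc. Across all 22180 genes the change was small, with an SD of 0.18 in pair 1 and 0.20 in pair 2 on the log2 scale. No gene passed an adjusted p of 0.05 in the paired limma fit over all 8 arrays (0.0% called, smallest adjusted p 0.135), and 1674 genes, 7.55%, had an unadjusted p under 0.05. Of these, 854 were higher (3.85%) and 820 lower (3.7%) after UVA-1. All differences below are therefore descriptions that did not pass the threshold in that fit, with adjusted p-values from limma of 0.591 or more for every gene named other than Hspa1a and Hspa1b.

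The number of calls depended on how gene variances were modelled. With a variance trend on intensity and robust moderation, 39 genes passed (0.176%), 26 higher (0.117%) and 13 lower (0.0586%). Each of the 39 had that sign in the 2 pairs of Atg7 f/f Tyr::Cre cells as well. Of all genes, 23.8% were higher and 25.5% lower in both of those pairs. Those pairs also entered the variance estimate behind the calls, so their shared sign is not independent support. Leaving out any 1 of the 4 WT arrays, which leaves a single WT pair, ended every call. The calls rested on the other arrays and the block too: leaving out any 1 of the 4 Atg7 f/f Tyr::Cre arrays left 1 or 2 calls, and a block by number, over all 8 arrays or over the WT arrays alone, left 1. Both pairs were positive for 28.2% of all genes and both negative for 23.3%, and the differences in the pairs correlated at r = 0.16 across genes, which are not independent replicates. A difference of at least 0.5 in both pairs was reached by 24 genes upward and 20 downward, against 4 with that size in opposite directions. At 0.3 the counts were 138, 174 and 147. The count of opposite directions holds both orders of sign, so shared directions were more frequent than opposite ones at that size. Both UVA-1 arrays lay above both sham arrays for 11.0% of all genes and below them for 7.17%.

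**Figure D1:**
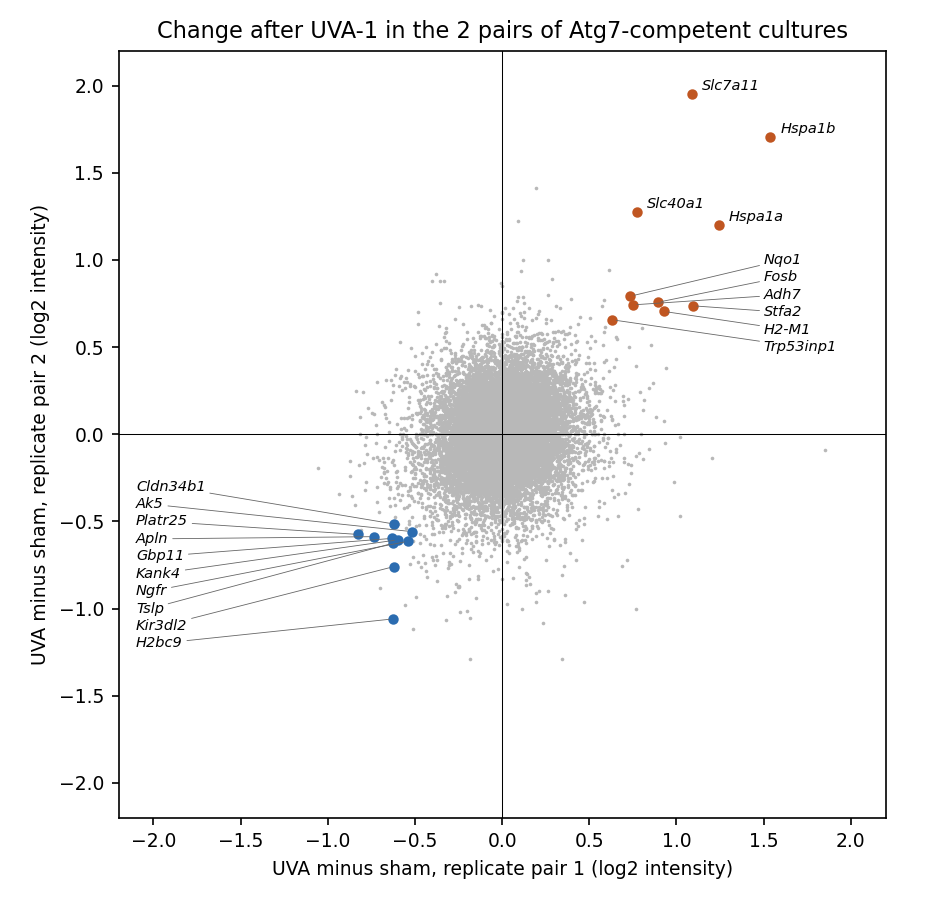
Each point is a gene, placed by its UVA-1 minus sham difference (log2 intensity) in pair 1 and pair 2 of Atg7 f/f cells; orange and blue points are the 10 genes in each direction with the largest smaller-pair difference. Most genes form a cloud around 0 (SD 0.18 and 0.20), while Hspa1b, Slc7a11, Hspa1a and Slc40a1 stand apart at the upper right.

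Hspa1b and Hspa1a encode the stress-inducible Hsp70 chaperone, which holds and refolds damaged protein. Hspa1b read 9.19 and 9.45 in the sham arrays and 10.72 and 11.15 in the UVA-1 arrays. Hspa1a read 8.88 and 9.80 after sham and 10.12 and 11.00 after UVA-1. For both genes every UVA-1 array lay above every sham array. Hspa1b was 3.08-fold higher (log2 difference 1.62 ± 0.12 SE, or 0.08 from its 2 pair differences alone, limma adjusted p = 0.135, from 1.46e-06 to 1 over the alternatives). Hspa1a was 2.33-fold higher (1.22 ± 0.10 SE, limma adjusted p = 0.135, from 3.79e-06 to 1). The transcripts of these neighbours are near-identical, so signal could be shared between their probe sets and the share of each is uncertain.

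Among the 23 heat shock and cytosolic chaperone genes measured of 27 listed, 17 were higher in both pairs and 2 lower, with a median log2 difference of 0.10 against 0.01 for all genes. An unadjusted p under 0.05 was reached by 8 members upward and 0 downward. Hspb8, a small heat shock protein that works with the co-chaperone BAG3 in clearing aggregates, read 10.56 and 10.81 after sham and 11.06 and 11.47 after UVA-1. Bag3 itself differed by 0.31 and 0.30 in the pairs, and Hsph1, which recharges Hsp70, by 0.21 and 0.41. Dnajb4, an Hsp40 partner, was uneven, with 0.21 in pair 1 and 0.69 in pair 2. Other members changed little, with Hspa8 at 0.13 and 0.06, Hspa4 at -0.03 and -0.02, and Hsp90aa1 at 0.01 and 0.11.

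Genes driven by NRF2 formed the list with the highest median, 0.26, which is 1.20-fold, with 0.24 in pair 1 and 0.27 in pair 2. Of 33 measured members of 39 listed, 26 were higher in both pairs and 1 lower, and 16 had an unadjusted p under 0.05, all higher. Of the 39 genes that passed with the variance trend, 10 were among the 33 measured members, against 0.176% of all genes. The lists were chosen with earlier results of these data known, and these calls depended on the arrays and block used, as described above. Slc7a11, the cystine and glutamate exchanger that brings in the rate-limiting amino acid, read 10.18 and 9.51 after sham and 11.27 and 11.47 after UVA-1. It was 2.87-fold higher (1.52 ± 0.23 SE), with 1.09 in pair 1 and 1.95 in pair 2, and its UVA-1 and sham arrays did not overlap. Pair 2 carried the larger part, and the SE from the 2 pair differences alone was 0.43.

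Both subunits of glutamate-cysteine ligase, which starts glutathione synthesis, were higher. The regulatory subunit gene Gclm read 11.89 and 12.33 after sham and 12.55 and 12.88 after UVA-1, and the catalytic subunit gene Gclc read 10.99 and 10.77 against 11.49 and 11.27. Neither overlapped between treatments. Gsr, the reductase that regenerates reduced glutathione, differed by 0.66 and 0.56, and Txnrd1, its counterpart for thioredoxin, by 0.32 and 0.59. Srxn1, which repairs overoxidised peroxiredoxins, differed by 0.20 and 0.57. Of the pentose phosphate path, which supplies the NADPH these reductases use, Taldo1 differed by 0.58 and 0.51 and Pgd by 0.32 and 0.45. Me1, another NADPH source, differed by 0.08 and 0.06 only.

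Nqo1, the quinone reductase often taken as the reference NRF2 target, read 9.31 and 9.94 after sham and 10.05 and 10.73 after UVA-1, 1.70-fold higher (0.76 ± 0.09 SE). Its UVA-1 arrays lay above both sham arrays. Osgin1, Cbr3 and Abcc4 differed by 0.33 and 0.52, 0.60 and 0.43, and 0.40 and 0.13 in pairs 1 and 2. The glutathione transferases were less even, since Gsta4 differed by 1.02 in pair 1 and -0.01 in pair 2, Gstm1 by -0.01 and 0.27, and Gstp1 by 0.01 and 0.12. The regulators themselves differed little, with 0.07 and 0.16 for Nfe2l2, which encodes NRF2, and -0.00 and 0.13 for Keap1. Catalase (Cat), which breaks down hydrogen peroxide and was not on the list, differed by 0.33 and 0.43.

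**Figure D2:**
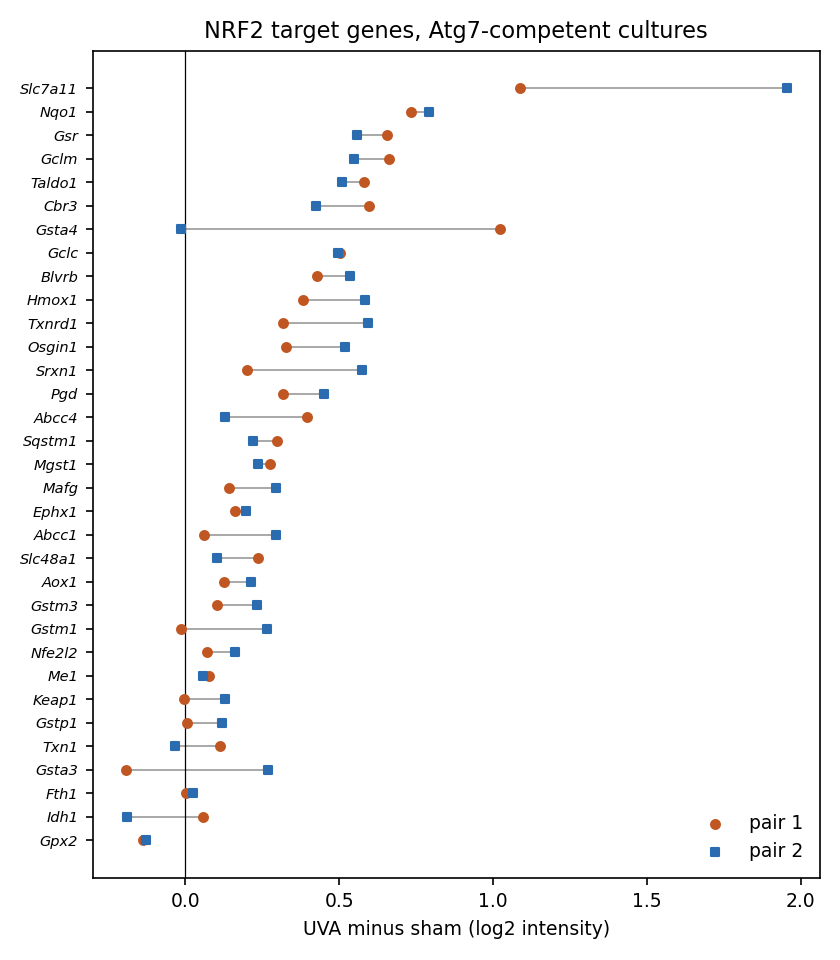
UVA-1 minus sham difference (log2 intensity) of each of the 33 measured NRF2 target genes in pair 1 (circles) and pair 2 (squares) of Atg7 f/f cells. Most members lie right of 0 in both pairs; Slc7a11 is farthest at 1.09 and 1.95, and Gsta4 is high in pair 1 only.

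Heme, iron and metallothionein genes had a median of 0.02 over 18 members, with 8 higher and 6 lower in both pairs. An unadjusted p under 0.05 was reached by 3 upward and 1 downward. The metallothionein gene Mt4 was lower, with a difference from -0.52 to -0.33 over all settings. Upward, 3 members stood out. Slc40a1, which encodes ferroportin, the only known iron exporter, read 7.27 and 7.11 after sham and 8.04 and 8.38 after UVA-1, 2.03-fold higher (1.02 ± 0.17 SE, or 0.25 from its 2 pair differences alone). Hmox1, which breaks down heme, read 13.16 and 12.53 against 13.54 and 13.11. Blvrb, a biliverdin reductase gene, differed by 0.43 and 0.54. The ferritin heavy chain gene Fth1 differed by 0.00 and 0.03. Defence against lipid peroxides and aldehydes, another arm of the oxidant response, had a median of -0.09 over 15 measured members, and 0 reached an unadjusted p under 0.05.

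**Figure D3:**
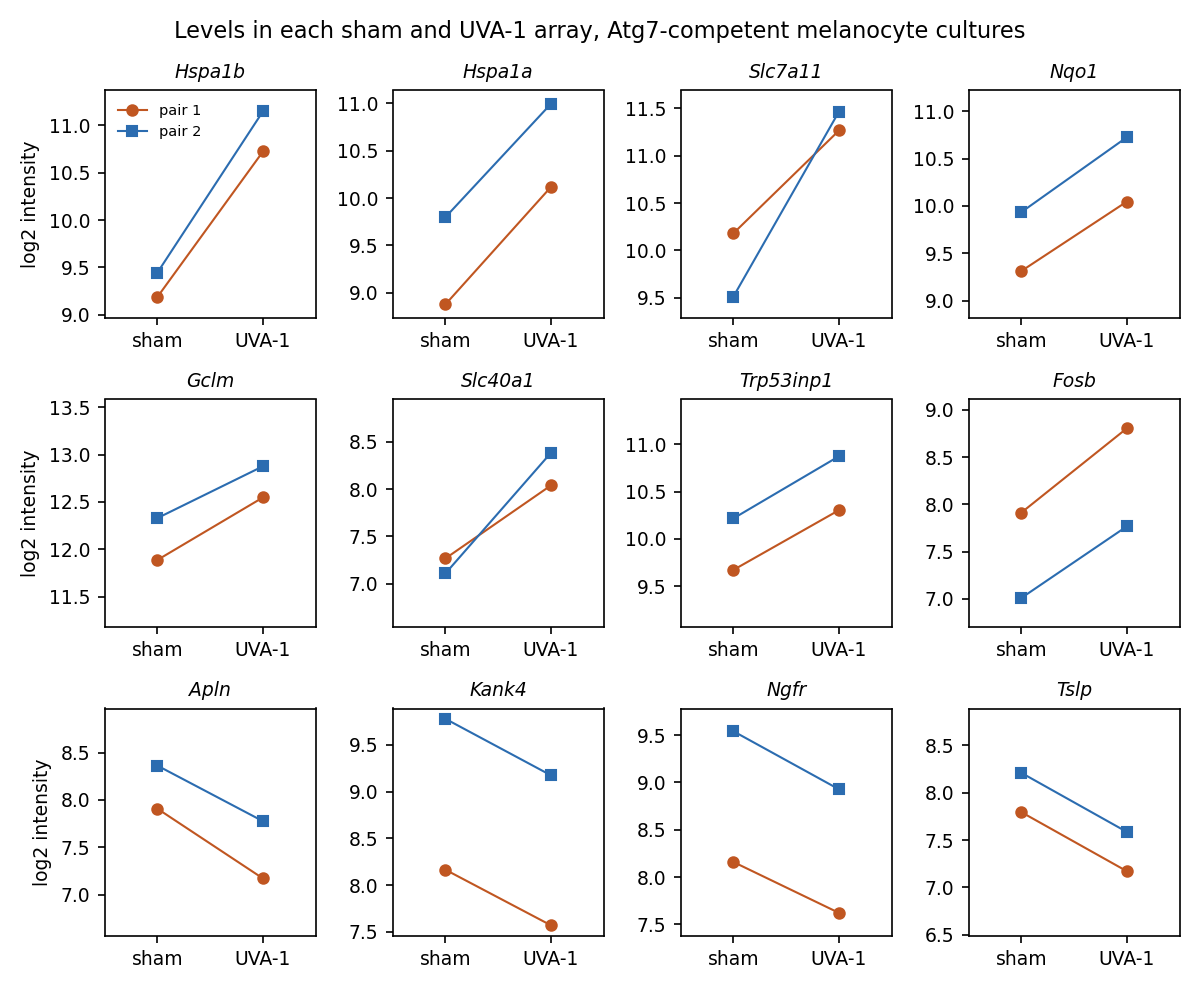
Log2 intensity of 12 genes in the sham and UVA-1 arrays of pair 1 (circles) and pair 2 (squares); each line joins the arrays of a pair and every panel spans at least 2.4 log2 units. The 8 upper genes were higher after UVA-1 in both pairs, from Hspa1b (1.54 and 1.70) to Gclm (0.66 and 0.55), and Apln, Kank4, Ngfr and Tslp were lower in both.

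Targets of p53 had the second highest median, 0.21, with 0.14 in pair 1 and 0.32 in pair 2. Of 28 measured members, 20 were higher in both pairs and 1 lower, and 13 had an unadjusted p under 0.05, all higher. Trp53inp1, a p53-induced protein of the nucleus and of autophagosomes, read 9.67 and 10.22 after sham and 10.30 and 10.87 after UVA-1, 1.56-fold higher (0.64 ± 0.09 SE). Both UVA-1 arrays exceeded both sham arrays. Cdkn1a, which encodes the cell cycle inhibitor p21, differed by 0.18 and 0.52, and Mdm2, the ligase that limits p53, by 0.13 and 0.32.

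The pro-apoptotic gene Bbc3 (PUMA) differed by 0.37 and 0.43, the death receptor gene Tnfrsf10b by 0.17 and 0.65, and Sesn2, a sestrin that restrains mTORC1, by 0.28 and 0.66. Fas and Zmat3 differed in pair 2 only, with 0.43 and 0.41 there against -0.09 and -0.03 in pair 1. In the wider list of apoptosis control genes the median was 0.08, with 6 of 21 higher in both pairs and 5 lower. Of the DNA repair genes, 12 of 31 were higher in both pairs and 8 lower, with a median of 0.02. The nucleotide excision repair genes Xpc, which recognises lesions, and Ercc2, a helicase, were its only members with an unadjusted p under 0.05, at 0.32 and 0.32 and at 0.22 and 0.19. These 2 were 6.45% of the list, against 7.55% of all genes in either direction and 3.85% upward, so the list did not stand out by this count. Xpc was also on the p53 list.

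Most immediate early genes were near their sham level at 6 h. The median of 31 measured members was 0.06, 10 were higher in both pairs and 2 lower. An unadjusted p under 0.05 was reached by 5 upward (16.1%, against 3.85% of all genes) and 0 downward. Fosb, a component of the AP-1 factor, was the exception in size, with 7.91 and 7.01 after sham and 8.80 and 7.77 after UVA-1 (0.82 ± 0.18 SE). The gap between the pairs was as wide as this change, so the treatments overlapped. Fos differed by -0.05 and 0.27, Jun by -0.03 and 0.17 and Egr1 by 0.11 and -0.05. Atf3, a stress-induced repressor, differed by 0.37 and 0.57, and Zfp36, which destabilises cytokine mRNA, by 0.36 and 0.35.

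Genes of the integrated stress response, which ATF4 drives when translation is curbed, had a median of 0.03 over 27 measured members, with 10 higher and 5 lower in both pairs. An unadjusted p under 0.05 was reached by 5 upward and 0 downward. Slc7a11, also on this list, had the largest difference of its members (1.09 and 1.95), and Sesn2, also a p53 target, differed by 0.28 and 0.66. Ppp1r15a, which restarts translation, differed by 0.47 and 0.27 and the mTORC1 inhibitor gene Ddit4 by 0.22 and 0.40. The amino acid synthesis genes Asns and Psat1 on the same list differed by -0.00 and -0.11 and by -0.04 and -0.28. Chaperones of the endoplasmic reticulum showed no shift, with a median of -0.01 over 21 members, 5 higher and 7 lower in both pairs, and Hspa5 (BiP) at -0.09 and 0.07.

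Of 34 measured autophagy genes, 21 were higher in both pairs and 3 lower, with a median of 0.10 and 8 members with an unadjusted p under 0.05, all higher. The cargo receptor gene Sqstm1 (p62), which is also an NRF2 target, read 13.00 and 13.17 after sham and 13.30 and 13.40 after UVA-1, without overlap. Tfe3 and Tfeb, transcription factors of lysosome and autophagy genes, differed by 0.28 and 0.36 and by 0.28 and 0.15. Atg14, Atg101 and Atg13 differed by 0.40 and 0.20, 0.24 and 0.28, and 0.22 and 0.22. The LC3 gene Map1lc3b was flat at 0.00 and -0.03, while its relative Gabarapl1 differed by 0.25 and 0.23.

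Proteasome subunit genes had a median of 0.12, and 23 of 31 were higher in both pairs against 2 lower. The regulatory particle genes Psmd11 and Psmc6 differed by 0.28 and 0.45 and by 0.21 and 0.27, and Psma1 of the core by 0.30 and 0.27. Pair 2 again had the higher median, 0.16 against 0.05. Lysosome genes had a median of 0.00 over 29 members, with 11 higher and 8 lower in both pairs. Npc1, which exports cholesterol from lysosomes, differed by 0.44 and 0.15.

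**Figure D4:**
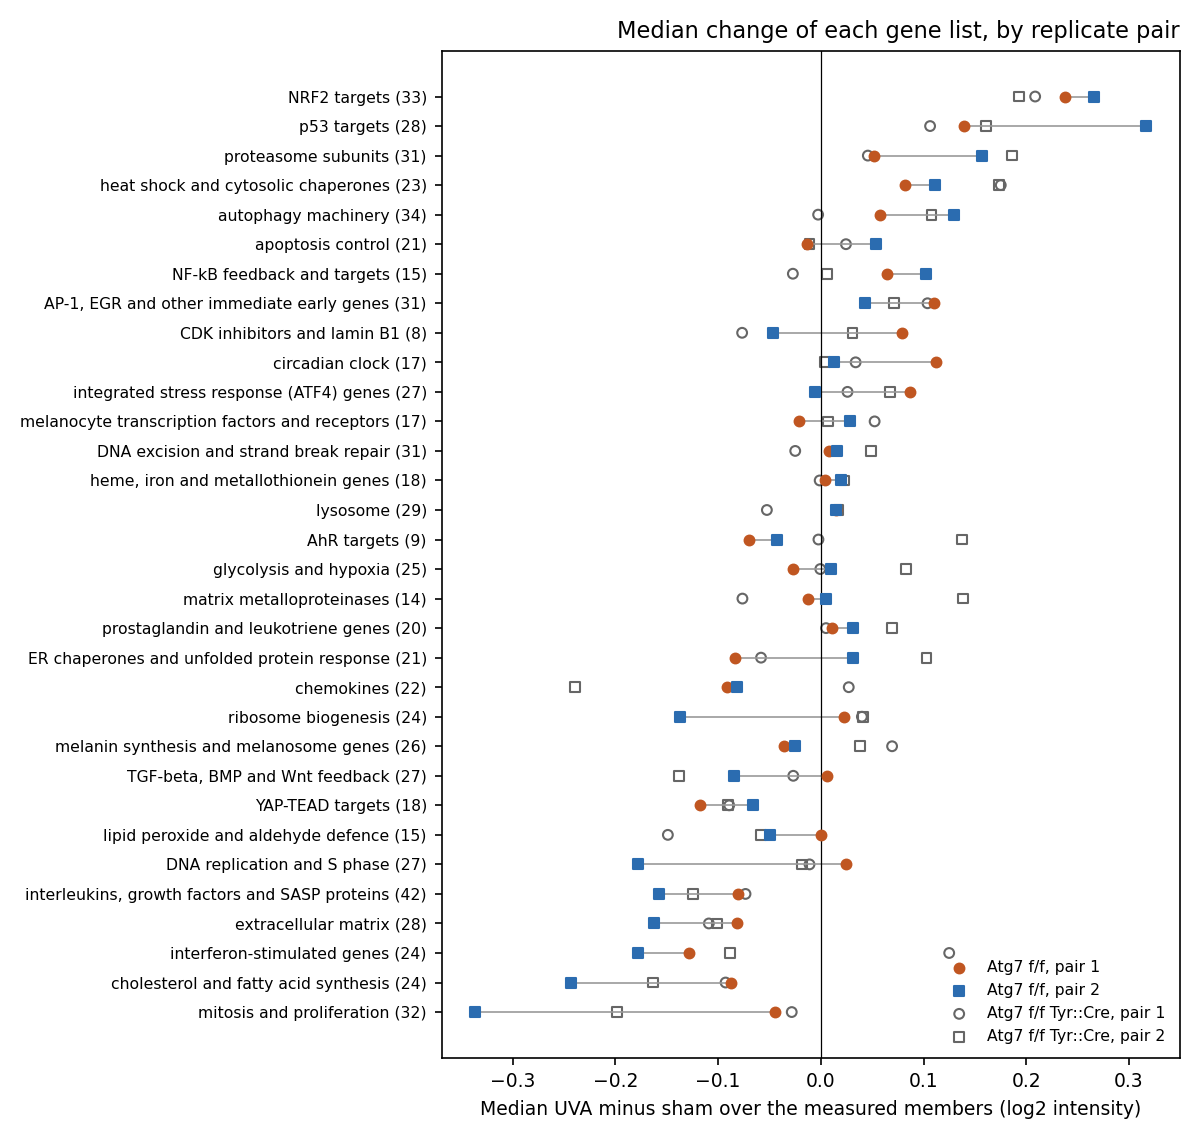
Median UVA-1 minus sham difference (log2 intensity) of 32 gene lists, with the number of measured members in brackets; filled symbols are the pairs of Atg7 f/f cells and open symbols those of Atg7 f/f Tyr::Cre cells. NRF2 and p53 targets lie at the top (0.26 and 0.21 over both pairs) and mitosis genes at the bottom, where pair 1 (-0.04) and pair 2 (-0.34) of Atg7 f/f cells are far apart.

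Genes of mitosis had the lowest median, -0.21, but this came mainly from pair 2, with -0.34 against -0.04 in pair 1. Of 32 measured members, 20 were lower in both pairs and 1 higher, and 10 had an unadjusted p under 0.05, all lower. Ube2c, the ubiquitin-conjugating enzyme of the anaphase-promoting complex, read 8.22 and 11.17 after sham and 7.85 and 10.68 after UVA-1. The mitotic kinase gene Plk1 differed by -0.28 and -0.54, and the spindle motor gene Kif11 by -0.28 and -0.34. Other members were lower in pair 2 only: Cenpe differed by 0.13 and -0.60 and Aurka by 0.26 and -0.38. The sham level of the list was itself different, with a median of 7.30 in array 1 and 10.22 in array 2. Beside it, summed fibroblast marker intensity was 50283 and 10042 in sham arrays 1 and 2 and 49218 and 8997 after UVA-1, and the melanocyte sum was 71618 and 122909 against 67962 and 120805. Their part in the mitosis result was not tested. Replication genes had a median of -0.10, at 0.02 in pair 1 and -0.18 in pair 2, with Mcm2 at -0.23 and -0.21.

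Cholesterol and fatty acid synthesis genes were lower in both pairs for 18 of 24 measured members and higher for 1, with a median of -0.18 (-0.09 in pair 1 and -0.24 in pair 2). An unadjusted p under 0.05 was reached by 9 members, all lower. Hmgcs1, which makes the substrate of the statin target, read 11.12 and 12.11 after sham and 10.73 and 11.87 after UVA-1. The fatty acid elongase gene Elovl6 differed by -0.25 and -0.46, acetyl-CoA carboxylase Acaca by -0.35 and -0.26 and the sterol gene Mvd by -0.33 and -0.27. Abca1, which exports cholesterol, ran the other way in pair 2, at 0.36, and was at -0.04 in pair 1. The transcription factor genes Srebf1 and Srebf2 differed by 0.02 and -0.12 and by -0.01 and -0.09.

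Interferon-stimulated genes had a median of -0.16, with 16 of 24 lower in both pairs and 4 higher, and 5 members with an unadjusted p under 0.05, all lower. The RNA sensor gene Ddx58 (RIG-I) read 10.31 and 11.12 after sham and 9.95 and 10.79 after UVA-1. Ifit1, which binds foreign RNA, differed by -0.37 and -0.84, the antiviral GTPase gene Mx2 by -0.44 and -0.60 and Oasl2 by -0.27 and -0.41. Their sham levels also differed between the arrays, with 7.78 and 9.99 for Ifit1. In Atg7 f/f Tyr::Cre cells the list median was 0.12 in pair 1 and -0.09 in pair 2, so the list did not have a common direction there.

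Secreted proteins were lower on balance. Of 42 interleukins, growth factors and proteins of the senescence-associated secretory phenotype, 21 were lower and 8 higher in both pairs, with a median of -0.14. The alarmin gene Il33 differed by -0.46 and -0.40, and Edn1, the endothelin that keratinocytes send to melanocytes, by -0.53 and -0.32. Kitl, the ligand of the melanocyte receptor KIT, ran the other way at 0.40 and 0.42, as did the adhesion gene Icam1 at 0.39 and 0.52. Il6 differed by 1.02 in pair 1 and -0.47 in pair 2, so it had no common direction.

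Among 22 chemokines, Ccl2, which recruits monocytes, read 13.26 and 10.66 after sham and 12.92 and 10.13 after UVA-1. Ccl7 differed by -0.35 and -0.21, Cxcl10 by -0.18 and -1.29 and Cxcl2 by 0.81 and 0.20. The list median was -0.01, while the medians within pair 1 and pair 2 were -0.09 and -0.08. In both pairs 9 of the 22 were lower (40.9%, against 23.3% of all genes) and 3 higher (13.6%, against 28.2%). An unadjusted p under 0.05 was reached by 3 downward and 1 upward. Of 14 metalloproteinases, Mmp10 differed by 0.27 and 0.40 and Mmp16 by -0.50 and -0.38, with a median of -0.01. Timp1, an inhibitor of these enzymes, differed by -0.26 and -0.50.

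Extracellular matrix genes were lower in both pairs for 19 of 28 measured members and higher for 1, with a median of -0.14. The matrix proteoglycan gene Vcan differed by -0.31 and -0.39, Col12a1 by -0.23 and -0.58, Col6a3 by -0.18 and -0.26 and Col4a1 by -0.29 and -0.18. The fibroblast markers, some of which are on this list, had medians of 0.03 in pair 1 and -0.12 in pair 2, and their part in the matrix values was not tested. Targets of YAP and TEAD, which respond to cell tension, had 9 of 18 members lower in both pairs and 4 higher, with a median of -0.06. Ankrd1 read 11.98 and 8.26 after sham and 11.52 and 7.56 after UVA-1, and Ccn2 (CTGF) differed by -0.35 and -0.40.

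**Figure D5:**
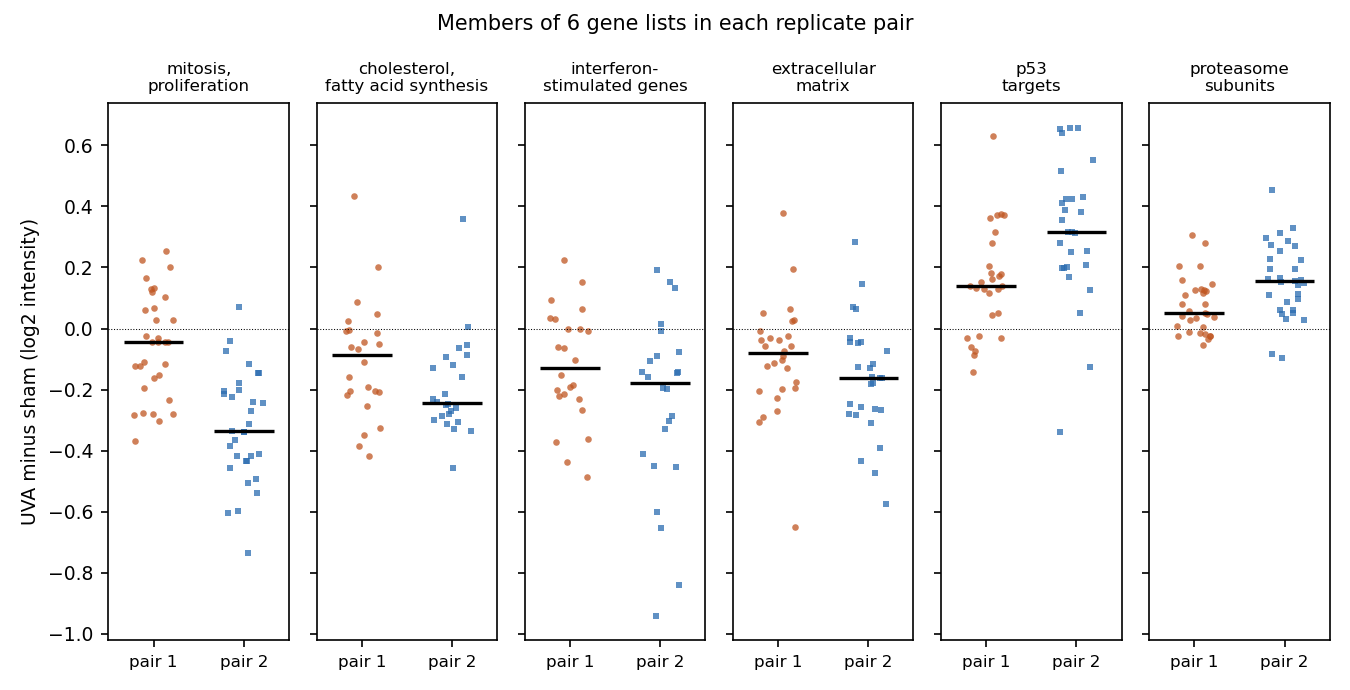
UVA-1 minus sham difference (log2 intensity) of every measured member of 6 lists in pair 1 and pair 2 of Atg7 f/f cells; points are genes and black bars the medians. Mitosis genes are spread around -0.04 in pair 1 and around -0.34 in pair 2, whereas p53 targets lie mainly above 0 in both pairs.

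Median changes of pigment cell genes were small 6 h after UVA-1. Of the 12 melanocyte markers, 7 were lower in both pairs (58.3%, against 23.3% of all genes) and 0 higher. Melanin synthesis and melanosome genes had a median of -0.04 over 26 members, with 14 lower and 3 higher in both pairs. Tyr, which encodes the first enzyme of melanin synthesis, read 10.66 and 12.18 after sham and 10.19 and 12.01 after UVA-1. The melanosomal genes Tyrp1, Pmel and Dct differed by -0.00 and -0.00, -0.02 and -0.04, and -0.10 and 0.01. Rab38, which carries enzymes to the melanosome, differed by -0.39 and -0.20, and Hps6, of melanosome biogenesis, by 0.23 and 0.44.

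Receptors and transcription factors of the lineage went in different directions. Mc1r, the melanocortin receptor, read 10.33 and 12.25 after sham and 9.96 and 11.95 after UVA-1. Ngfr, the neurotrophin receptor of neural crest cells, read 8.16 and 9.54 against 7.62 and 8.93 (-0.58 ± 0.09 SE), and Sox5 differed by -0.31 and -0.31. Ednrb, the endothelin receptor, ran the other way with 8.92 and 9.88 after sham and 9.53 and 10.24 after UVA-1 (0.49 ± 0.11 SE). Mitf, the master regulator of the lineage, differed by -0.58 in pair 1 and 0.03 in pair 2, and Sox10 by -0.02 and 0.09. Melanocyte markers were thus lower in pair 1, with a median of -0.12, and at -0.02 in pair 2.

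Adh7, H2-M1 and Stfa2, among the 10 genes with the largest concordant increase, belong to none of the stress lists. Adh7, an alcohol and retinol dehydrogenase, read 9.12 and 11.19 after sham and 9.87 and 11.93 after UVA-1 (0.75 ± 0.08 SE). H2-M1, a nonclassical class I gene, differed by 0.93 and 0.70, and the cysteine protease inhibitor gene Stfa2, dim at 3.91 and 4.17 after sham, by 1.09 and 0.74. Several genes passed only with the variance trend and were chosen after their values were seen. Of these, Procr, the endothelial protein C receptor, differed by 0.58 and 0.77, Ddit4l, an mTORC1 inhibitor, by 0.61 and 0.94, and the organic cation transporter gene Slc22a4 by 0.80 and 0.61. Pvr, the poliovirus receptor seen by NK cells, differed by 0.42 and 0.42.

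Of the 10 leading decreases, Apln, the ligand of the apelin receptor, read 7.91 and 8.36 after sham and 7.17 and 7.77 after UVA-1 (-0.66 ± 0.09 SE). Its treatments did not overlap. Kank4, a cytoskeletal adaptor, differed by -0.60 and -0.60, the epithelial cytokine gene Tslp by -0.62 and -0.62 and the adenylate kinase gene Ak5 by -0.52 and -0.56. The histone gene H2bc9 had the largest mean decrease, -0.84 ± 0.22 SE, from 5.21 and 6.64 to 4.58 and 5.58. Gbp11, Kir3dl2, Platr25 and Cldn34b1 differed by -0.63 and -0.60, -0.62 and -0.76, -0.82 and -0.57, and -0.62 and -0.51 at low levels. Platr25 nonetheless had a mean log2 intensity of at least 6. Among all 20 leading genes, 4 had a mean log2 intensity under 6.

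Keratinocyte markers, 9 of 10 measured and dim, had a median difference of -0.11 (-0.02 in pair 1 and -0.17 in pair 2), with 2 higher and 3 lower in both pairs. The remaining lists had medians within 0.10 of 0. Of all genes, 28.2% were higher and 23.3% lower in both pairs. NF-kB feedback genes had 9 of 15 members higher in both pairs and 1 lower (median 0.07). Circadian clock genes had 5 of 17 higher and 3 lower (median 0.04), and AhR targets 1 of 9 higher and 4 lower (median 0.00). Prostaglandin and leukotriene genes had 6 of 20 higher and 4 lower (median -0.01). Ribosome biogenesis had 9 of 24 lower in both pairs and 2 higher (median -0.02). TGF-beta, BMP and Wnt feedback had 11 of 27 lower and 6 higher (median -0.04). Glycolysis and hypoxia had 5 of 25 lower and 4 higher (median -0.00). Cyclin-dependent kinase inhibitors with lamin B1 had 2 of 8 in each direction.

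The same treatment of Atg7 f/f Tyr::Cre cells used other arrays and its own shams. In limma 0 genes passed an adjusted p of 0.05 for the difference of the responses (0.0% called, 907 genes or 4.09% with an unadjusted p under 0.05), and 0 passed in each alternative. A gene that misses this threshold is not shown to respond alike. The difference of the responses, autophagy competent minus deficient, was -0.03 ± 0.16 SE for Hspa1b, 0.24 ± 0.32 SE for Slc7a11 and 0.29 ± 0.12 SE for Nqo1 (limma adjusted p of 1 for each). In the deficient cells Hspa1b differed by 1.47 and 1.84, Hspa1a by 1.66 and 1.40, Slc7a11 by 0.98 and 1.58, Slc40a1 by 0.66 and 1.21 and Nqo1 by 0.39 and 0.56. Of the 138 genes higher by at least 0.3 in both competent pairs, 75 were higher in both deficient pairs, against 23.8% of all genes. Of the 174 lower ones, 97 were lower in both, against 25.5%. Among the leading 10 in each direction, 9 of the increases and 5 of the decreases kept their sign in both deficient pairs. Across genes, pair 1 of the competent cells correlated at r = 0.26 with deficient pair 1 and at 0.12 with deficient pair 2. Pair 2 of the competent cells correlated at 0.14 and 0.15 with deficient pairs 1 and 2.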

How the data were processed

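RNA of 8 samples was amplified, labelled with biotin and hybridised to Affymetrix whole-transcript mouse arrays, per the labels' protocols. The deposited values are whole-number probe set intensities from 7 to 22585. Per the submitters' processing notes the authors made these intensity values by robust multi-array averaging (RMA) in Affymetrix Expression Console 1.3.1.187, which equalises array distributions and would hide a shift of most transcripts. The genome build is not given in the sources used here.

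Here log2 was taken with no pseudocount. Of 41345 probe sets, 23521 had 1 gene symbol in the platform annotation, 1814 several and 16010 none, which left 22180 genes after the brightest probe set was kept for each of 1082 genes with several. Precision is limited by 2 arrays per group.

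limma 3.58.1 in R 4.3.3 fitted all 8 arrays with group means and a block for each genotype and replicate number, with 2 residual degrees of freedom. P-values were two-sided and adjusted by Benjamini-Hochberg over all genes, with a threshold of 0.05. The script was tested on simulated data. Pairing by the number in the titles was checked: deviations of the sham and UVA-1 arrays from their group means correlated at 0.92 across genes, though only 2 pairs exist and what a number marks is not labelled.

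The 40 gene lists (859 genes, 790 measured) and the arrays compared were chosen with earlier results of these data known. Named genes were, in each direction, those past the threshold, filled to 10 by the smaller of the pair differences where both had 1 sign; up to 4 members of each list by the same measure, or members of a list described gene by gene; and Atg7 and Sqstm1. Predicted genes, clones, olfactory and vomeronasal receptors and small RNAs were not named. Genes named after their values were seen are said to be so. Alternatives varied the block, arrays, filter, probe set rule, normalisation, pseudocount and variance model, and left out each array.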

Additional observations from a re-analysis of the deposited data

Results flagged for a closer look

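The median of 12 melanocyte markers was -0.0766 after UVA-1 in Atg7 f/f cells (-0.12 in pair 1 and -0.02 in pair 2) and had the opposite sign in both pairs of Atg7 f/f Tyr::Cre cells (0.05 and 0.005). The median of 26 melanin synthesis and melanosome genes was -0.0383 (-0.04 and -0.02) against 0.07 and 0.04 in the Atg7 f/f Tyr::Cre pairs. Both were picked out because every pair of one genotype lay on one side of 0 and every pair of the other on the opposite side. These differences between the genotypes were not tested, the lists share members such as Tyr, and all medians were small.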

How the results depend on the processing

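Without the replicate block 0 genes passed for UVA-1 against sham in Atg7 f/f cells (260 with an unadjusted p under 0.05), and with the number alone as a block, which pairs all 4 arrays of a number, 0 passed (872). The count of 0 moved to 2 with a mean log2 intensity of at least 6 (Hspa1a and Hspa1b), to 2 with arrays centred on their median (the same genes), and to 39 with an intensity trend and robust variance. Alternatives chosen after seeing the data gave 12 with the trend alone, 0 with robust variance alone, 1 (Hspa1b) with trend, robust variance and a block by number, 1 (Hspa1b) with these and WT arrays only, and 81 with trend, robust variance and the intensity filter (47 higher, 34 lower). The cause of these moves was not tested. Leaving out each array gave 0 in every case (from 826 to 1508 unadjusted), and with trend and robust variance from 0 to 2. Dropping a WT array leaves its partner absorbed by the block, so the variance then rests on fewer pairs. The difference between genotypes gave 0 calls in every alternative run. Of 40 lists, 10 had a median of at least 0.1 in size, and each of these 10 kept its sign in both pairs and in all 14 alternatives other than those that leave out a single array. Of the 239 genes followed, which hold every gene named with a difference, 20 reversed direction when 1 array was left out, and 0 under the other alternatives. Each had opposite signs in its 2 pairs: Abca1 (from -0.0428 to 0.36), Atg7 (from -0.0461 to 0.0217), Aurka (from -0.38 to 0.26), Cenpe (from -0.60 to 0.13), Dct (from -0.10 to 0.0127), Egr1 (from -0.051 to 0.11), Fas (from -0.0866 to 0.43), Fos (from -0.0527 to 0.27), Gsta4 (from -0.0136 to 1.02), Gstm1 (from -0.0125 to 0.27), Hspa5 (from -0.0879 to 0.0677), Ifi202b (from -0.0875 to 1.85), Il6 (from -0.47 to 1.02), Jun (from -0.0321 to 0.17), Keap1 (from -0.0037 to 0.13), Map1lc3b (from -0.0254 to 0.0033), Mitf (from -0.58 to 0.0322), Sox10 (from -0.0209 to 0.0874), Srebf1 (from -0.12 to 0.023) and Zmat3 (from -0.0299 to 0.41). Dim genes, with whole-number intensities, have coarse log2 values.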

Other observations

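Outside the lists, several genes named after their values were seen differed in the same direction in both pairs. Rtp4 and Trim34a, each picked for its values, differed by -0.50 and -0.93 and by -0.49 and -0.73 in pairs 1 and 2. The histone gene H2bc12 differed by -0.54 and -0.50, beside H2bc9. Slitrk6 differed by -0.51 and -1.12, Lgi4 by -0.43 and -0.78, the laminin gene Lama2 by -0.40 and -0.57, the actin-bundling gene Palld by -0.45 and -0.48 and Ncam1 by -0.39 and -0.30. The ectonucleotidase gene Entpd1 (CD39) differed by -0.47 and -0.76 and the cytokine signalling inhibitor gene Socs2 by -0.44 and -0.43.

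Higher in both pairs were Prkaa2, a catalytic subunit of the energy sensor AMPK, at 0.39 and 0.62, the spermine oxidase gene Smox at 0.53 and 0.41, the Notch ligand gene Jag1 at 0.94 and 0.38, the small GTPase gene Gem at 0.64 and 0.39, and Zfand2a, an arsenite-inducible regulator of the proteasome, at 0.36 and 0.38. Map7d2 differed by 0.85 and 0.51. None of these passed the threshold in the paired limma fit. Some large differences stood in 1 pair only: the homeobox gene Lhx8 differed by 0.20 and 1.41, and Ifi202b by 1.85 and -0.09 from a sham level of 4.17 in pair 1.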
